A study of Mus musculus with 11 samples.

Results

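The genes described here belong to the unfolded protein response, the program by which cells adjust the folding capacity of the endoplasmic reticulum (ER). The 10 genes were taken by name: the chaperones Hspa5, Hsp90b1 and Calr, the disulfide isomerase Pdia4, the cofactors and degradation factors Dnajb9, Sdf2l1 and Herpud1, and the transcription factors Xbp1, Atf4 and Ddit3. They were listed by their known roles, with no threshold on a measured value. Of the 10, 9 had a probe on the array, 1 probe each, among 23978 probes that stand for 15946 named genes; Sdf2l1 had no probe paired with it in the platform table and was not analysed here. The RNA came from the choroid plexus (CP), the tissue inside the brain ventricles that forms the cerebrospinal fluid, of female SJL mice aged 6 to 8 weeks. Mice with experimental autoimmune encephalomyelitis (EAE), a relapsing-remitting model of multiple sclerosis, had received a proteolipid protein peptide in complete Freund's adjuvant with pertussis toxin. Control mice had received saline in the same adjuvant with pertussis toxin on the same schedule, so the controls were also exposed to adjuvant and toxin. There were 3 control pools, 3 pools at onset, 3 at remission and 2 at relapse, each of CP from 3 mice. Controls were collected at the time of onset, so remission and relapse pools came from later days than their controls, and time after injection and phase cannot be told apart in those 2 comparisons.

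The unfolded protein response is run by sensors in the ER membrane. IRE1 (gene Ern1) splices the Xbp1 mRNA, PERK (Eif2ak3) lowers general translation and favours that of ATF4, and ATF6 is cut in the Golgi to free a transcription factor. BiP, the product of Hspa5, holds the sensors inactive and leaves them when unfolded proteins build up. The targets are chaperones, isomerases, translocation factors and the degradation machinery, and CHOP (Ddit3) is a late factor of the PERK branch that can promote cell death. CP epithelium is a secretory tissue that exports large amounts of transthyretin through the ER.

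Promoters are shown first because an ER stress response element (ERSE) is a known mark of some genes in this program. The ERSE was searched as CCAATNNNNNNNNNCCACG on both strands from 250 bases before to 50 bases after the start site in RefSeq sequence of build GRCm38.p6, which is from another mouse strain than SJL. It was present in 39 of 32851 promoters, 0.119%, and in those of 3 of the 10 genes, Hspa5, Hsp90b1 and Calr. A related element, ERSE-II, searched as ATTGGNCCACG, was present in 12 promoters, 0.0365%, among them Herpud1. All 10 genes were matched in the promoter table. The 4 promoters with an element are printed in the gene's own direction with the elements in capitals.
Hspa5, chr2:34771840-34772139, plus strand: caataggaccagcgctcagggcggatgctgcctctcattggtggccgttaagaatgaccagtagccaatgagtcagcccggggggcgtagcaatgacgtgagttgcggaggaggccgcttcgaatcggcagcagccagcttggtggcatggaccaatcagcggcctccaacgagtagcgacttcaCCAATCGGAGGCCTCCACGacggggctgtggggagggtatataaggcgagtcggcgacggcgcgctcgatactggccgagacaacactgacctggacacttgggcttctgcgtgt
Hsp90b1, chr10:86705395-86705694, minus strand: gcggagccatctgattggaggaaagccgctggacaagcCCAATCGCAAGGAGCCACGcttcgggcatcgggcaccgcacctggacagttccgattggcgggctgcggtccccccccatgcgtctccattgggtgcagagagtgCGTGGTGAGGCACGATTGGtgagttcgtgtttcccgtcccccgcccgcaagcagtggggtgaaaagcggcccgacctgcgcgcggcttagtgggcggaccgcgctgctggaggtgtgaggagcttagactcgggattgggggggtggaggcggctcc
Calr, chr8:84846882-84847181, minus strand: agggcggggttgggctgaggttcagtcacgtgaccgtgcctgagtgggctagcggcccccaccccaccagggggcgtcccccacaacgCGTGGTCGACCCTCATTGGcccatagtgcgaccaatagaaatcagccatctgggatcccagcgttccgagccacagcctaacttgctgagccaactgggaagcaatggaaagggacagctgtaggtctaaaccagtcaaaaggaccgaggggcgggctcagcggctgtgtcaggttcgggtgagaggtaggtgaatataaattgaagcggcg
Herpud1, chr8:94386179-94386478, plus strand: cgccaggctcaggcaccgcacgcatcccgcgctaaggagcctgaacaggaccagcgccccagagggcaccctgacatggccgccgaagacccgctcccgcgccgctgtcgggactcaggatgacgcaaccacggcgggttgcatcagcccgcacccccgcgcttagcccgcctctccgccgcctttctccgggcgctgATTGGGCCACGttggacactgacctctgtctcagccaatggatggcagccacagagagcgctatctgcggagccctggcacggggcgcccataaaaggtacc
In Hspa5 the ERSE lay at positions -65 to -47, counted from the start site, on the coding strand. Hsp90b1 held 1 on the coding strand, at -212 to -194, and 1 on the opposite strand, at -107 to -89. The element of Calr was on the opposite strand, at -162 to -144, so its capitals are the reverse complement of the letters searched. Herpud1 carried its ERSE-II at -52 to -42. The element TGACGTGG, which XBP1 binds, was in 222 promoters (0.676%) and in none of the 10, and the C/EBP-ATF element TGATGNAA, read by ATF4 and CHOP, was in 1304 (3.97%) and in 1 of the 10, Herpud1, on the opposite strand. These are exact matches of letters, so copies that differ from the letters searched were not counted, and no binding was measured.

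Signals are given as log2 of the array intensity after quantile normalization, and a probe was above background in a pool where its detection p-value was under 0.01. Between 8687 and 10221 probes were above background per pool. The 7 measured CP epithelium markers of 10 listed were above background in every pool, with a summed signal of 416000 to 435000. Their unnormalized intensities reached 37% to 100% of the highest on the same array, so there was little room above most of them, and they show the tissue rather than how much of its epithelium was present. In pooled tissue, fewer cells of a type and less RNA per cell cannot be told apart. Onset pool 3 and remission pool 3 stood close together: of 10012 probes detected in the pair, 0 were apart by over 1 log2 unit, while other pairs had 7 to 266 such probes. Without both pools, none of the chosen genes passed the test either.

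None of the genes above background passed the test in any phase. In limma, with Benjamini-Hochberg adjustment over all probes, 0 of the 7 passed an adjusted p of 0.05 at onset, where 1.21% of all probes did (254 higher and 37 lower). At remission the count was 0 of 7 against 0.204% of all probes, and at relapse 0 of 7 against 0.0125%. Between phases it was 0 of 7 for remission against onset (0% of all probes), relapse against onset (0.292%) and relapse against remission (0.0292%). At an unadjusted p under 0.05 the count was also 0 of 7 in all 6 comparisons. Against control, 9.72% of all probes passed it at onset, 7.07% at remission and 5.68% at relapse. For remission against onset, 983 of 23978 probes passed it. No such count is given for relapse against onset or against remission, so the 0 of 7 there lacks a background. At an alpha of 0.05 in groups of 2 and 3 pools, a missed threshold does not show equal levels, and the confidence intervals below give the sizes that remain possible.

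**Figure D1:**
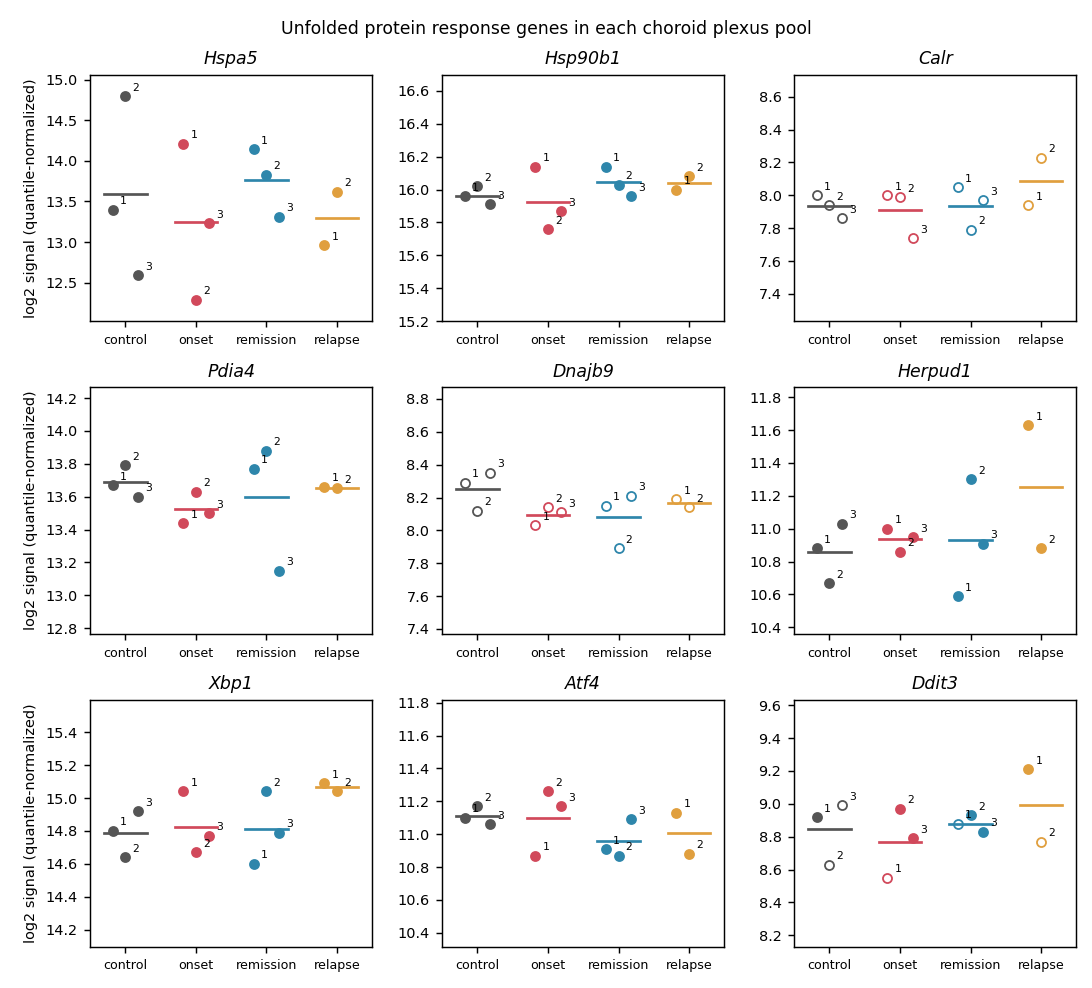
Log2 quantile-normalized signal (vertical axes, each with its own range of at least 1.5) of the 9 measured genes in every pool, numbered by pool within control, onset, remission and relapse; bars are group means, filled points are above background and open points are not. Hspa5 spanned 12.29 to 14.80 and its 4 groups overlapped, while Calr and Dnajb9 were above background in no pool.

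Hspa5 (chr2:34772090-34776529) encodes BiP, the Hsp70 chaperone of the ER lumen and the standard readout of ER stress. Its log2 signal was 13.40, 14.80 and 12.59 in control pools 1 to 3, 14.21, 12.29 and 13.23 in onset pools 1 to 3, 14.14, 13.83 and 13.31 in remission pools 1 to 3, and 12.96 and 13.62 in relapse pools 1 and 2. The highest value was in a control pool and the lowest in an onset pool, and all 4 groups overlapped. The range of 2.51 on the log2 scale is 5.71-fold, and the unnormalized intensities ran from 4279 to 36543. Onset minus control was -0.35 (SE 0.52, 95% confidence interval -1.47 to 0.77, adjusted p = 0.914), remission minus control 0.16 (SE 0.52) and relapse minus control -0.31 (SE 0.58). All 3 signs rested on single pools. Without control pool 2 the differences were 0.25, 0.76 and 0.29, with adjusted p values of 0.909, 0.642 and 0.972 in limma. The onset difference was 0.13 without onset pool 2, and the relapse difference 0.02 without relapse pool 1. At remission it fell to -0.34 when control pool 3 was left out and to -0.03 when remission pool 1 was, and it was 0.39 with onset pool 3 and remission pool 3 both dropped. The 95% confidence interval of Hspa5 ran from 0.36 to 1.70 times the control level at onset.

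The spread of Hspa5 between pools of the same group set it apart from the other genes of the program. Its within-group SD was 0.84, and of 8371 probes above background in all pools only 7 had an SD as high, itself included (0.0836%; the median SD was 0.119). With median scaling in place of quantile normalization it was 0.898, again among 7 probes. Pdia4 had an SD of 0.222, Herpud1 0.295, Xbp1 0.174, Atf4 0.144, Ddit3 0.196 and Hsp90b1 0.122. The SD of Hspa5 was 1.12 among the 3 control pools alone, 0.96 at onset, 0.42 at remission and 0.46 between the 2 relapse pools.

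Hsp90b1 (chr10:86690841-86705444) encodes GRP94, the Hsp90 chaperone of the ER. It gave 15.96, 16.02 and 15.91 in the control pools, 16.14, 15.76 and 15.87 in the onset pools, 16.14, 16.03 and 15.96 in the remission pools, and 16 and 16.08 in the relapse pools. These values overlapped in all groups and spanned 0.39. Its unnormalized intensity was 64.9% to 99.6% of the highest intensity on the same array, so little of the scanner's range lay above it and differences between pools may be compressed. The differences from control were -0.04, 0.08 and 0.08 at onset, remission and relapse, with SEs of 0.10, 0.10 and 0.11.

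Calr (chr8:84842088-84846931), calreticulin, the calcium-binding lectin chaperone of glycoproteins, was above background in 0 of 11 pools, with detection p-values of 0.103 to 0.829. Its signals of 7.74 to 8.23 therefore give no level, and no fold is reported. Its probe offers no reading of this chaperone in the CP.

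Pdia4 (chr6:47796141-47813512), the disulfide isomerase ERp72, had 13.67, 13.79 and 13.60 in the control pools, 13.44, 13.63 and 13.50 in the onset pools, 13.77, 13.88 and 13.15 in the remission pools, and 13.66 and 13.65 in the relapse pools. Onset pools sat low and overlapped the control pools by a narrow margin, and remission pool 3 had the lowest value of all. The difference was -0.16 at onset (SE 0.15, adjusted p = 0.831 in limma), -0.09 at remission and -0.03 at relapse. Without remission pool 3 the remission difference was 0.14.

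Dnajb9 (chr12:44205897-44210068), the J-domain cochaperone ERdj4 of BiP, was above background in 0 of 11 pools, with detection p-values of 0.0751 to 0.548 and signals of 7.89 to 8.35. Sdf2l1 (chr16:17130138-17132383), which in mammalian cells forms a complex with J-domain cochaperones of BiP, was not measured. Of the BiP cofactors chosen, the array therefore gave no usable signal.

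Herpud1 (chr8:94386429-94395371) encodes HERP, an ER membrane protein of the degradation complex. Its values were 10.88, 10.67 and 11.03 in controls, 11, 10.86 and 10.95 in the onset pools, 10.59, 11.30 and 10.91 in the remission pools, and 11.63 and 10.88 in the relapse pools. Relapse pool 1 held the highest value, and relapse pool 2 lay within the control range. Relapse minus control was 0.40 (SE 0.21, 95% confidence interval -0.07 to 0.86, unadjusted p = 0.0868 and adjusted p = 0.924 in limma). It was 0.02 without relapse pool 1 and 0.77 without relapse pool 2. At onset the difference was 0.08 and at remission 0.07, both with an SE of 0.19.

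Xbp1 (chr11:5520641-5525993) encodes the transcription factor of the IRE1 branch, which also drives secretory differentiation. Its signal does not tell the spliced mRNA from the unspliced one, since the position of the probe was not given in the tables used. It read 14.80, 14.64 and 14.92 in control pools, 15.04, 14.67 and 14.77 in the onset pools, 14.60, 15.04 and 14.79 in the remission pools, and 15.09 and 15.04 in the relapse pools. Both relapse pools lay above all 3 control pools, the only such case among the 7 genes in a comparison with control, where 20.2% of all probes did not overlap between relapse and control. At onset and at remission 0 of 7 genes failed to overlap with the controls, beside 15.2% and 12% of all probes. The relapse difference of Xbp1 was 0.28 (SE 0.14, 95% confidence interval -0.02 to 0.58), a ratio of 1.22 that did not pass the test (unadjusted p = 0.063 and adjusted p = 0.883 in limma). Over 20 alternative settings it ranged from 0.16 to 0.35, and the lowest adjusted p was 0.374.

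Markers of brain cells were also highest at relapse, where Xbp1 and Herpud1 had their highest means. The summed signal of 7 oligodendrocyte markers was 9580 to 17100 in control and 20900 to 22000 in relapse pools, with Mog and Opalin above background in neither group. That of 5 astrocyte markers was 5460 to 7000 and 7810 to 8260 (Gfap and Slc1a2 in neither), and that of 8 neuron markers 12600 to 13300 and 14500 to 15900 (Snap25 and Nefl in neither). Of the neuron markers, Stmn2 and Slc17a7 were also above background in no control pool. None of these markers passed the test in any phase. At an unadjusted p under 0.05 in limma, 4 of 7 oligodendrocyte, 2 of 5 astrocyte and 3 of 8 neuron markers were higher at relapse. Of all probes 5.68% passed it there, in either direction. The part of brain cells in the relapse values of Xbp1 and Herpud1 was not tested.

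Atf4 (chr15:80255184-80257545) encodes the factor that PERK favours by translation, so its mRNA reports only part of its activity. Control pools had 11.10, 11.17 and 11.06, onset pools 10.87, 11.26 and 11.17, remission pools 10.91, 10.87 and 11.09, and relapse pools 11.13 and 10.88. All 4 groups overlapped within a range of 0.39. The differences from control were -0.01, -0.15 and -0.10 at onset, remission and relapse, with SEs of 0.11, 0.11 and 0.12.

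Ddit3 (chr10:127290793-127296291), CHOP, was near the detection limit and was above background in 6 of 11 pools. Its signals were 8.92, 8.63 and 8.99 in controls, 8.55, 8.97 and 8.79 in the onset pools, 8.88, 8.93 and 8.83 in the remission pools, and 9.21 and 8.77 in the relapse pools. The pools above background were 1 control, 2 onset, 2 remission and 1 relapse pool, so detection was spread over all groups. Its differences from control were -0.07, 0.04 and 0.14 with SEs of 0.14, 0.14 and 0.15.

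**Figure D2:**
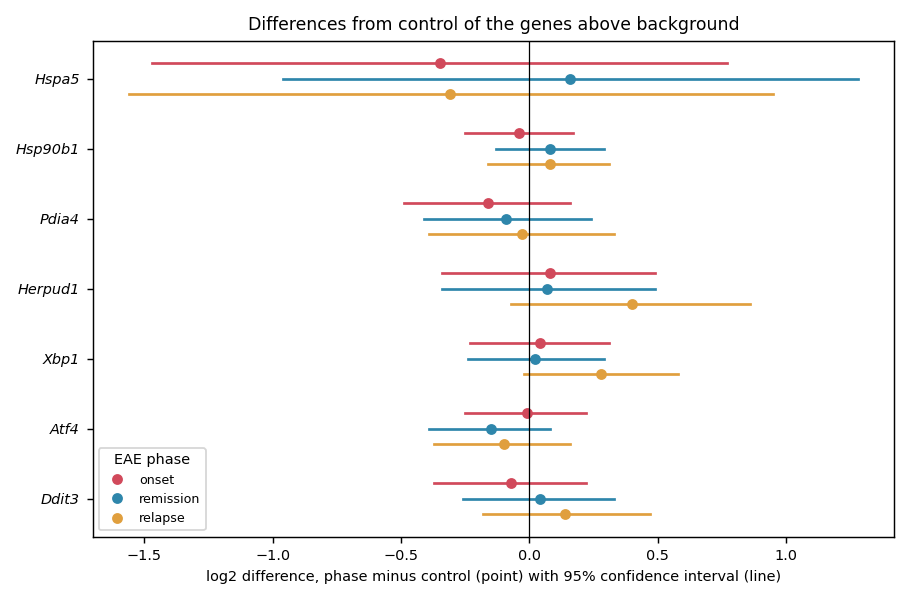
Log2 difference of each EAE phase from control (horizontal axis) for the 7 genes above background, with lines for the 95% confidence interval of the limma fit. All intervals cross 0, the widest are those of Hspa5, and the points of Herpud1 and Xbp1 at relapse stand at 0.40 and 0.28.

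Intervals were narrower for the other 6 genes, among which Hsp90b1 was near the top of the scanner's range and Ddit3 near background, so theirs describe the probe signal and do not bound a change in level. At onset the intervals of the 6 lay between 0.714 and 1.41 times the control level, at remission between 0.751 and 1.40 times, and at relapse, with 2 pools, between 0.762 and 1.81 times. Across the 20 alternative settings, 840 refitted values gave 0 past the threshold, with a lowest adjusted p of 0.303.

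Of the other 8 measured genes, 1 varied together with Hspa5 between pools of the same group beyond the test's threshold. After the group means were removed, the deviations of Hspa5 were compared with those of the other 8 measured genes by an exact permutation test within groups (two-sided, 432 arrangements, Benjamini-Hochberg over the 8). Hsp90b1 followed Hspa5, with Pearson's r = 0.835 (p = 0.00231, the smallest these arrangements can give, adjusted p = 0.0185, exact test) and Spearman's rho = 0.9 (p = 0.00463, adjusted p = 0.037, exact test). In onset pools 1 and 2, its deviations were 0.22 and -0.17 where those of Hspa5 were 0.97 and -0.96; with Hsp90b1 near the top of the scanner's range, these sizes cannot be compared. Without the 2 pools farthest from the median of Hspa5, control 2 and onset 2, r was 0.896, but with 48 arrangements the smallest possible p was 0.0208 and the adjusted p was 0.333 in the exact test. Without onset pool 3 and remission pool 3 it was 0.841 (adjusted p = 0.0833, exact test). An r as high as that of Hsp90b1 was shared by 9.37% of the probes above background in all pools. In the other direction, which the two-sided test also counts, 9.92% had an r of -0.833 or lower. An r of this size was therefore not particular to these genes.

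Ddit3 ran the other way, with r = -0.833 and rho = -0.745 (p = 0.0162 and 0.0278, adjusted p = 0.0648 and 0.111, exact test), which did not pass after adjustment. Of the probes above background in all pools, 9.92% had an r as low as that of Ddit3. Dnajb9, which was not above background, had r = -0.644 (adjusted p = 0.0988, exact test), and 25% of those probes had an r as low. The remaining values of r were -0.492 for Atf4, -0.357 for Herpud1, -0.0175 for Xbp1, 0.235 for Pdia4 and 0.242 for Calr, with adjusted p values of 0.304 to 0.961 in the exact test.

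The deviations of Hspa5 moved with a pattern that ran through the whole array. The first principal component of the deviations of the other 8370 probes above background in all pools held 56.6% of their variance, and its correlation with Hspa5 was 0.973 (11 pools), a size that 2.11% of the probes reached. With Hsp90b1 it was 0.817, with Ddit3 -0.832 and with Herpud1 -0.525. In all, 6.32% of these probes had an r over 0.9 with Hspa5 and 4.06% one under -0.9. The part of this pattern in the relation of Hsp90b1 and Hspa5 was not tested.

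The genes whose profile was most like that of Hspa5 over the 11 pools were not ER chaperones. They were Htr2c, the serotonin receptor abundant in CP epithelium (Pearson's r = 0.99), the ciliary transport gene Ttc26 (0.983), the splicing-related gene Scaf11 (0.981), Hspa4l, a cytosolic relative of Hsp70 (0.981), and the endosomal sorting gene Stam2 (0.981). Htr2c had 11.81, 12.57 and 11.30 in control pools, 12.14, 11.03 and 11.52 in the onset pools, 12.24, 11.97 and 11.68 in the remission pools, and 11.41 and 11.94 in the relapse pools. Its order of pools followed that of Hspa5 closely, with the highest value in control pool 2 and the lowest in onset pool 2. These correlations describe 11 pools that share the array-wide pattern above, and carry no test.

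**Figure D3:**
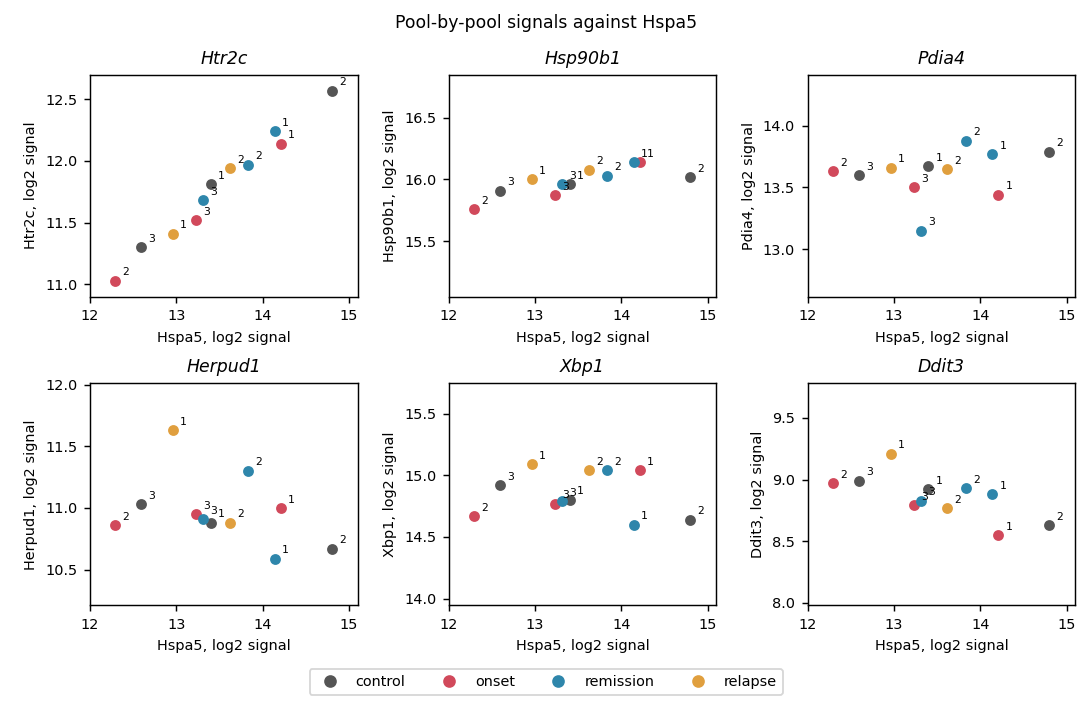
Log2 signal of 6 genes (vertical axes, each spanning at least 1.8) against that of Hspa5 (horizontal axis) in the 11 pools, coloured by group and numbered by pool. Htr2c rises with Hspa5 along a line (r = 0.99), Hsp90b1 rises within its narrow range, Ddit3 tends to fall, and Pdia4, Herpud1 and Xbp1 show no clear relation.

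Beyond the 10 genes, 7 lists of the same program and its surroundings held 170 genes, of which 151 were measured. At onset 1 of the 151 passed the test (1.21% of all probes did), and 0 passed at remission (0.204%) and at relapse (0.0125%). With array weights the onset count was 5 higher and 9 lower. At an unadjusted p under 0.05 there were 15 at onset (9.93%, beside 9.72% of all probes; 6 higher and 9 lower), 6 at remission (3.97%, beside 7.07%; 1 higher and 5 lower) and 6 at relapse (3.97%, beside 5.68%; 4 higher and 2 lower). Over the 7 lists together, the shares were close to or below the background of all probes. The lists were not alike at onset: the 37 measured targets of ATF4 and CHOP held 6 of the higher genes and 1 of the lower.

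The sensors and their activating proteases were 6 of 8 measured, with 3 of these above background in at least 2 pools. Their median log2 difference at onset was -0.06, where the median of all genes was -0.02. It was 0.04 over the 3 above background, so the sign of the list median gives no direction. None passed the test. Ern1, the sensor IRE1, was above background in no pool. Mbtps1, the site-1 protease that cuts ATF6, had 11.10, 11.17 and 11.12 in controls and 11.37 and 11.38 at relapse, a difference of 0.24 (SE 0.12, adjusted p = 0.882 in limma). Mbtps2 was above background in no pool, and Atf6b, the close relative of Atf6, had a mean of 12.51 at onset against 12.65 (adjusted p = 0.755 in limma).

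Among the other ER chaperones and cochaperones, 21 of 22 measured and 15 of these above background in at least 2 pools, 0 passed in any phase. At onset the median was -0.10, also with median scaling, and it was -0.16 over the 15. Of the 21 differences 19 were negative (90.5%, beside 55.6% of all genes). The 19 include Dnajc3, Dnajc10, Canx, Cdnf and Hspa13, which were above background in no pool, so their signs give no direction. Other lists also leaned down at onset: 80% were negative for heat shock genes and 69.4% for translocation and export. The share was 66.7% for disulfide isomerases and 61.9% for degradation, but 50% for the sensors and 48.6% for targets of ATF4 and CHOP. Creld1, an ER membrane protein, had 12.06, 12.09 and 12.12 in controls and 11.90, 11.81 and 11.86 at onset, and the groups did not overlap (difference -0.24, SE 0.08, adjusted p = 0.311 in limma). Serpinh1, the collagen chaperone HSP47, was at a mean of 13.91 against 14.13, and Fkbp2, an ER prolyl isomerase, at 12.98 against 13.28, with adjusted p values of 0.447 and 0.473 in limma. Ganab, the catalytic subunit of glucosidase II, was at 13.59 at relapse against 13.34 in controls (adjusted p = 0.841 in limma).

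Disulfide isomerases and oxidases, 15 of 17 measured, had 0 called and medians of -0.09, 0.02 and 0.07 at onset, remission and relapse, which became 0.02, -0.01 and 0.05 with median scaling. Pdia6, the isomerase that also attenuates IRE1 signalling, had the most negative onset difference among the 4 named, at a mean of 11.74 against 12.07 in controls (difference -0.33, SE 0.16, adjusted p = 0.539 in limma). Pdia3, the glycoprotein isomerase ERp57, was at 13.90 against 13.74, and the oxidase Ero1b at 10.76 against 10.98. Tmx3, a transmembrane isomerase, was at 8.96 at remission against 9.12 (adjusted p = 0.692 in limma).

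Of the genes of ER-associated degradation, 21 of 23 were measured and 16 of these were above background in at least 2 pools. The list had 0 called and medians of -0.04, 0 and 0.08, which became 0.02, 0.01 and 0.02 with median scaling. Man1b1, the mannosidase that marks glycoproteins for disposal, was at 12.24 at onset against 12.42. The ubiquitin ligase Syvn1 (HRD1) was at 14.26 at relapse against 14.04, its partner Sel1l at 11.88 against 11.72 and the lectin Os9 at 14.09 against 13.89, with an adjusted p of 0.907 for all 3 in limma.

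Translocation and export genes, 36 of 40 measured, also had 0 called and medians of -0.04, 0.03 and 0, which became 0.01, -0.02 and -0.03 with median scaling. Rpn1 and Ostc, of the oligosaccharyltransferase, had adjusted p values of 0.298 and 0.447 at onset in limma, with means of 8.70 against 8.94 and 13.98 against 14.17, and Rpn1 was above background in 4 of 11 pools. Srprb, of the signal recognition particle receptor, was at 11.55 at relapse against 11.28, while Sec61b, of the translocation channel, was at 12.52 against 12.73. Heat shock genes outside the ER, chosen to set the ER apart from a general stress response, were measured for 15 of 19. Most are cytosolic, while Hspd1 and Hspe1 encode mitochondrial chaperones. The list had 0 called and medians of -0.05, 0.01 and 0.04, which became -0.13, -0.08 and -0.06 with median scaling. Cryab, Hsph1 and Hspd1 were at 14.59, 13.90 and 14.30 at onset against 14.86, 14.09 and 14.43 in controls. Chordc1, a cochaperone of Hsp90, was at 13.34 at onset and 13.72 at relapse against 13.49.

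The exception was among the targets of ATF4 and CHOP, 37 of 41 measured and 24 of these above background in at least 2 pools. Cebpb, a transcription factor induced by ATF4 and also prominent in myeloid cells, had 11.20, 11.37 and 11.45 in control pools and 12.06, 12.13 and 12.09 at onset. At remission it had 11.32, 11.36 and 11.99, and at relapse 11.32 and 11.36. All onset pools lay above all control pools, and remission pool 3 lay near the onset pools while the other two remission pools were at the control level. Cebpb rose at onset by 0.76 (SE 0.14, 95% confidence interval 0.44 to 1.07), which is 1.69-fold (adjusted p = 0.0255 in limma). Without onset pool 3 and remission pool 3 the rise was the same and its adjusted p was 0.00583. The call was lost without control pool 1 (adjusted p = 0.128), control pool 2 (0.0838), onset pool 1 (0.078), onset pool 2 (0.0688) or onset pool 3 (0.0974), with differences of 0.69 to 0.78, and with a background correction (0.0615).

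Among the other ATF4 and CHOP targets, all onset pools lay above all control pools for Slc7a5, Ddit4, Nupr1, Slc3a2 and Bcl2l11. They lay below all control pools for Psat1, Phgdh, Shmt2, Gars1, Chac1 and Tnfrsf10b. None of these genes passed the test, and Bcl2l11, Chac1 and Tnfrsf10b were above background in no pool. Of all probes, 15.2% did not overlap between onset and control, in either direction. Slc7a5, a subunit of the large amino acid transporter, had 10.78, 10.43 and 10.94 in controls and 11.29, 11.53 and 11.50 at onset (difference 0.72, SE 0.17, adjusted p = 0.0581 in limma). Ddit4, an inhibitor of mTORC1, differed by 0.44 (adjusted p = 0.0948) and Nupr1, a stress-induced nuclear protein, by 0.71 (adjusted p = 0.162). At relapse, where Cebpb differed from control by 0, Nupr1 differed by 0.63, Slc7a5 by 0.33 and Ddit4 by 0.13. For Nupr1 and Slc7a5 both relapse pools lay above all control pools, where 20.2% of all probes did not overlap, in either direction. In Slc7a5, Ddit4 and Nupr1 remission pool 3 was again the highest remission pool, with 11.39, 10.35 and 10.87. Without onset pool 3 and remission pool 3 the onset differences were 0.69, 0.48 and 0.62, and those at remission 0.10, 0 and 0.50. The list as a whole had a median of 0.01 at onset, -0.02 at remission and 0 at relapse, beside -0.02, -0.01 and 0 for all genes.

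Markers of other cell types moved at onset with Cebpb. Of 9 measured neutrophil markers, 4 rose at onset in the same fit, and their summed signal was 3950 to 7640 in control pools, 15800 to 27800 at onset, 7840 to 16400 at remission and 4570 to 4790 at relapse. Retnlg, Csf3r and Ngp were above background in no control pool, and Cxcr2 and Mmp8 in no onset pool. Of 11 measured macrophage markers, 2 rose (8190 to 12200 in controls and 14400 to 18300 at onset, with Cd163, Itgam and Fcer1g above background in neither group), and of 11 endothelial markers 5 rose (13600 to 16600 and 22300 to 26800, with Kdr above background in neither). T and NK cell markers rose for 4 of 9 (2370 to 2830 and 3430 to 4070). All 9 were above background in no control pool, so the control sum gives no level. Cd4, Cd8a, Cd2, Nkg7, Cd5 and Cd6 were above background in no onset pool either, so the 4 include a marker above background in neither group. The part of these cells in the rise of Cebpb was not tested. Of B and plasma cell markers, a lineage that depends on Xbp1 for secretion, 0 of 9 passed in any phase. All but Mzb1, 8 of the 9, were above background in no pool. At relapse 4 of the 9 were higher at an unadjusted p under 0.05 in limma (5.68% of all probes passed, in either direction). The summed signal was 2770 to 2880 there and 2400 to 2580 in controls. With 8 of the 9 above background in no pool, these sums give no level, and the 4 include markers above background in no pool. The part of B and plasma cells in the relapse values of Xbp1 was not tested. Stromal and mural markers rose for 1 of 8 at onset, and 0 of 3 erythroid markers passed the test in any phase.

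**Figure D4:**
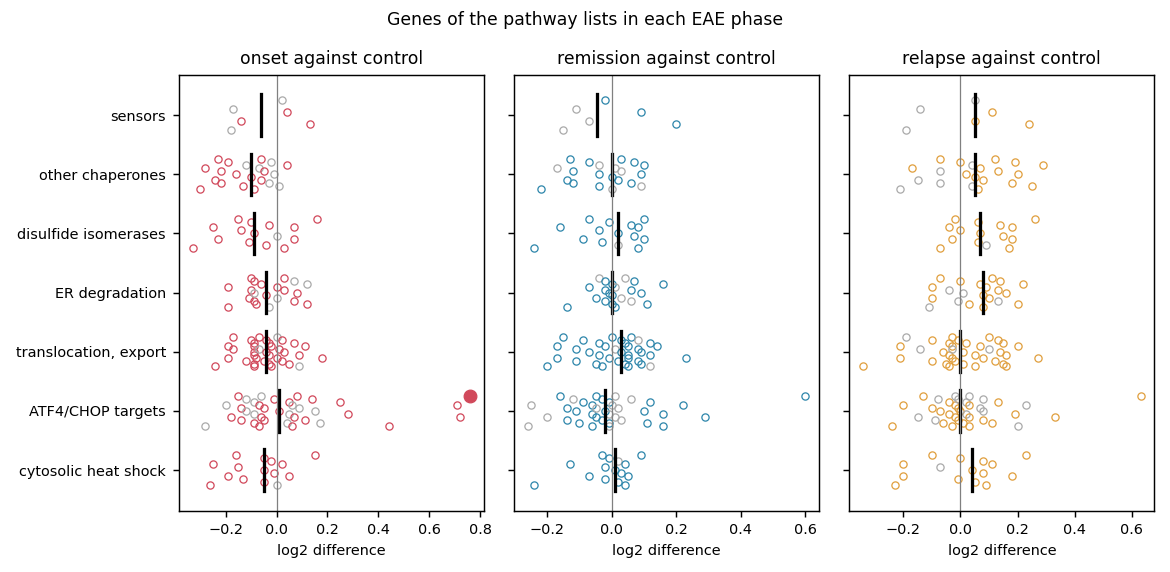
Log2 difference from control (horizontal axis) of each measured gene in the 7 other lists (rows) at onset, remission and relapse; black bars are list medians, grey circles are genes above background in no pool of either group, and the filled point is the gene called, Cebpb at onset (0.76). All other points are open, since their genes did not pass the test. The row named cytosolic heat shock also holds the mitochondrial Hspd1 and Hspe1.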

How the data were processed

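The authors hybridised CP RNA to Illumina MouseRef-8 arrays and exported 2 tables. The first, deposited without normalization, holds an intensity and a detection p-value per probe and pool from BeadStudio. The second holds the authors' normalized log2 values, which differed from a quantile normalization of the first by at most 0.0888. Here the deposited intensity values were put on the log2 scale and quantile-normalized with no background correction and no filter. In R 4.3.3, limma 3.58.1 was fitted with 4 group means over 11 pools, with Benjamini-Hochberg adjustment over 23978 probes at 0.05 (5 duplicated probes were left out). Of these probes 20917 paired with 1 gene, 1 with several and 3060 with none. The pools came from separate mice, and p-values measure the spread between pools. Arrays give no read depth. The number of pools limits the precision, and signal near background or near the top of the scanner's range limits some probes as well.

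Where a gene had several probes, that with the highest mean signal was used. Genes named are the 10 chosen genes, in each other list those called or with the 4 smallest p values in any phase against control, the 5 genes most like Hspa5, and markers that a result turned on. The 10 genes and all lists were chosen with earlier results of these data known. Code was tested on simulated data. Alternatives were neqc background correction, the authors' table, median scaling, a filter on dim probes, only the groups compared, a replicate block, array weights, a trended robust prior, unadjusted p-values and pools left out. The chip that held each array was not given in the sources used here, so chip was not used as a block. Pools with the same number deviated together, at r over 0.1 for every pair, only between onset and remission (0.463, 0.329 and 0.26), where a block on the number was therefore tried; of all 15 such pairs over the 6 comparisons 5 were over 0.1, with r from -0.586 to 0.465. The source of this pairing was not given in the sources used here.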

Additional observations from a re-analysis of the deposited data

How the results depend on the processing

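None of the 42 differences of the 7 genes above background passed the threshold under any of 20 alternatives; of the 840 refitted values 34 moved by more than 1 SE and 60 changed sign. The count of other pathway genes higher at onset, 1 in the fit reported, was 0 with neqc background correction, 2 with median scaling, 2 with only the groups compared, 2 with the replicate block, 5 with array weights and 6 at an unadjusted p, and 0 to 3 when 1 pool was left out; the cause was not tested. The count lower at onset, 0 in the fit reported, was 9 with array weights and 9 at an unadjusted p. At remission it was 1 with array weights for genes lower, and 1 higher and 5 lower at an unadjusted p, and at relapse 4 higher and 2 lower at an unadjusted p. The array weights ran from 0.427 to 3.82 (control pool 1). The correlation of Hsp90b1 with Hspa5 was 0.896 without the 2 pools farthest from the median of Hspa5 and 0.841 without onset pool 3 and remission pool 3, and did not pass with 48 arrangements. The replicate block changed no call among the 9 measured genes. A block among onset and remission pools only, chosen after seeing the data, also gave 0 of 9 past the threshold (lowest adjusted p 0.846) and 0 of all probes. Calr, Dnajb9 and in part Ddit3 are limited by signal near background, and Hsp90b1 by signal near the top of the scanner's range. The block on chip was not run.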
